A study of Mus musculus with 15 samples.

Results

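Transcripts of 6 sodium-proton exchangers of the Slc9a family, Slc9a2, Slc9a3, Slc9a5, Slc9a7, Slc9a8 and Slc9a9, were examined in 4T1 cells. The 6 genes were chosen by their symbols in a table of 40402 genes, with Slc9a2 taken because it was high in the untreated library and low in the treated ones. The other members were taken to set plasma membrane exchangers beside exchangers of internal organelles. All 6 reached 1 CPM (counts scaled to library size) in at least 1 library, as did 17594 genes of the table. For Slc9a3 and Slc9a7 that level was reached through some of the libraries alone.

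4T1 is an established mouse mammary carcinoma line used as a model of triple-negative breast cancer. The 5 groups were untreated cells, cells given blackberry extract (BLA) or blueberry extract (BLU), and cells given gold nanoparticles made with either extract (BLA-A and BLU-A). All groups were the same line, and treatment began 24 h after seeding. The labels list 3 samples per group, but the study's supplementary methods describe 1 sequenced library per condition from which 3 subsets of reads were drawn. Within a condition the 3 columns varied less than counting noise, with a chi-square per degree of freedom of 0.0951 to 0.475, so they were averaged and counted as 1 library. Treated and untreated cells were therefore compared as single libraries, without a test. The intervals below are exact 95% Poisson intervals of the library's count, and they cover counting error only. The labels give each sample a batch date of its own, so batch and condition cannot be told apart.

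Total counts ran from 25611976 to 26957141 per column, so that 3 counts correspond to 0.109 to 0.129 CPM after TMM scaling. The BLA-A library had the lowest TMM factor, 0.905, and the most genes past a log2 fold change of 1. Of 5 epithelial markers, all had more than 3 counts in every library, and their summed level was 802 to 1397 CPM. Epcam, which encodes an epithelial adhesion molecule, was at 39.7 to 68.8 CPM, whereas the basal keratin gene Krt14 stayed below 0.84 CPM. In bulk RNA, fewer cells of a type and less RNA per cell cannot be told apart. The 5 leukocyte markers summed to 4.5 CPM in untreated cells and to 1.02 to 3.74 CPM in the treated libraries. The 5 endothelial markers summed to 3.93 to 8.83 CPM. The 5 fibroblast markers summed to 87.2 to 104 CPM, nearly all from Pdgfra, while Lum had 0 counts in all 5 libraries.

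Sodium-proton exchangers move a proton across a membrane in return for a sodium or potassium ion. At the plasma membrane they raise the pH of the cytoplasm and bring in sodium, and in the Golgi and endosomes they set the pH of the lumen against the proton pump. Slc9a2 and Slc9a3 encode the exchangers NHE2 and NHE3 of the apical membrane of gut and kidney epithelium. Slc9a5 encodes NHE5, best known from neurons, where it cycles between the plasma membrane and recycling endosomes. Slc9a7, Slc9a8 and Slc9a9 encode NHE7 of the trans-Golgi network, NHE8 of the Golgi and endosomes, and NHE9 of endosomes. Tumour cells that make much acid by glycolysis depend on such transporters to keep the cytoplasm near neutral.

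The members lie on different chromosomes of GRCm39 and differ greatly in gene length. Slc9a2 is at chr1:40719734-40808433 on the plus strand and spans 88.7 kb. A pair of antisense non-coding genes of the annotation overlap it, and neither was analysed here. Slc9a3 (chr13:74269360-74317561, plus strand) shares 8471 bases with Exoc3 on the opposite strand. Slc9a5 (chr8:106074801-106097709, plus strand) is the shortest at 22.9 kb and overlaps 2 annotated genes on the opposite strand. Slc9a7 (chrX:19965087-20158231, minus strand) shares 1142 bases with Chst7 on the opposite strand. Slc9a8 (chr2:167263472-167318922, plus strand) overlaps no other annotated gene. Slc9a9 (chr9:94551669-95112500, plus strand) is the longest at 561 kb and overlaps 6 annotated genes, 5 of them on the opposite strand. The authors counted by strand and over whole genes, introns included, so intronic reads were counted with exonic ones. Reads from a gene and its antisense partner were meant to be counted apart, but how well the strands were separated was not tested.

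RefSeq promoter windows of 300 bases, from a table of build GRCm38.p6, were found for 5 of the 6 members, all but Slc9a2. Each matched its chromosome of GRCm39 exactly at 1 place. The windows of Slc9a3, Slc9a7, Slc9a8 and Slc9a5 held 25, 24, 22 and 20 CpG dinucleotides, against a median of 7 over 32851 promoters. The Slc9a9 window held 6. The motif GGGCGG, a GC box, was searched on both strands (its reverse complement reads CCGCCC), and 35.7% of all 32851 windows held it at least once. It occurred 3 times in the windows of Slc9a3 and Slc9a7 and 2 times in those of Slc9a5 and Slc9a8, and no match was found in that of Slc9a9. The part of a window that lies before the first annotated exon is shown for the 3 members that have one, to set the start region of Slc9a5, the member of steady level, beside those of the scarce members Slc9a3 and Slc9a7. Capitals mark GGGCGG, and the sequences read 5′ to 3′ on the strand of the gene, at chr8:106074640-106074800 for Slc9a5, chr13:74269282-74269359 for Slc9a3 and chrX:20158232-20158316 for Slc9a7.
Slc9a5: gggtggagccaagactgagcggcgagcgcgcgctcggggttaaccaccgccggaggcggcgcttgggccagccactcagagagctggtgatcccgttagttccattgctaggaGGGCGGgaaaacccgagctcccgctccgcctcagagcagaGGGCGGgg
Slc9a3: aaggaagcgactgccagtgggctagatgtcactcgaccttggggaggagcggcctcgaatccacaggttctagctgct
Slc9a7: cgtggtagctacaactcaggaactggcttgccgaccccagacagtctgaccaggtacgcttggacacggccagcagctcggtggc
The Slc9a5 stretch of 161 bases held both of its GC boxes and 16 of its 20 CpG dinucleotides. The stretches of Slc9a3 (78 bases) and Slc9a7 (85 bases) held 4 and 5 CpG dinucleotides and no GC box, so that all of their GC boxes lay past the start of the first annotated exon.

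Slc9a2 transcripts were abundant in the untreated library and scarce in all 4 treated ones. The 3 untreated columns held 17487, 17562 and 17489 counts. The BLA columns held 121, 122 and 119 counts, the BLU columns 100, 102 and 100, the BLA-A columns 69, 75 and 69, and the BLU-A columns 128, 104 and 118. No treated library came near the untreated one. The columns of a condition are subsets of 1 library, so a gap between columns adds nothing to the comparison of libraries.

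On the TMM scale Slc9a2 was at 657 CPM in untreated cells (95% interval 647 to 667). It was at 4.43 CPM with BLA (3.69 to 5.31), 3.65 CPM with BLU (2.99 to 4.45), 3.06 CPM with BLA-A (2.39 to 3.86) and 4.40 CPM with BLU-A (3.65 to 5.29). The level in the treated libraries was thus 148-fold lower with BLA, 180-fold lower with BLU, 214-fold lower with BLA-A and 149-fold lower with BLU-A. Its log2 fold changes against untreated cells, on CPM plus 0.5, were -7.06, -7.31, -7.53 and -7.07 in the same order. Slc9a2 ranked 101st of 17594 genes by CPM in the untreated library and between 11734th and 12255th in the treated ones. Among the treated libraries neighbours in the order BLA, BLU-A, BLU, BLA-A did not differ beyond counting error, although BLA-A lay below BLA (log2 ratio -0.53, interval -0.98 to -0.10). Since this contrast chose the gene, these values are a description. Of the 5 leukocyte markers, Ptprc and Adgre1 were highest in untreated cells too, at 1.5 and 2.13 CPM. Csf1r was highest with BLU, at 1.81 CPM against 0.813 CPM in untreated cells, and Cd3e and Cd79a had 4 counts or fewer in every library. The part of these markers in the Slc9a2 result was not tested.

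**Figure D1:**
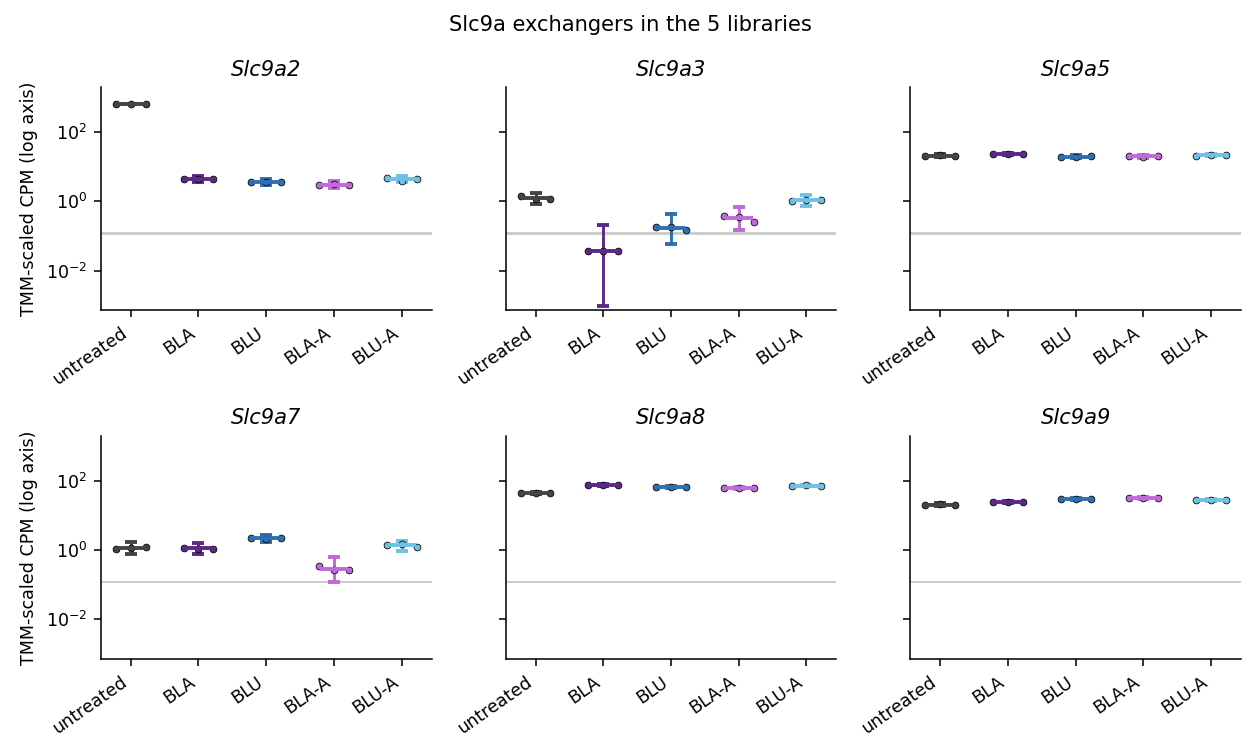
Level of each exchanger in the 5 libraries, in TMM-scaled CPM on a log axis. Small points are the 3 columns of a condition, the horizontal mark is their mean with its exact 95% Poisson interval, and the grey line is the level of 3 counts. Slc9a2 stands at 657 CPM in untreated cells and at 3.06 to 4.43 CPM in the treated libraries, whereas Slc9a5 stays between 19.8 and 23.5 CPM in all 5.

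The selection rule fixes the direction of Slc9a2, so its place among other genes is given as a description. Over all 17594 genes, 8 were lower by a log2 fold change of over 3 in all 4 treated libraries. Of 2293 genes with at least 100 CPM in untreated cells, 3 were lower by a log2 fold change of over 1 in all 4 treated libraries, and 2 of these 3 were lower by over 3. Those 2 were Slc9a2 and Shc2, an adaptor protein gene on another chromosome, which fell from 1320 CPM to 0.121 CPM or less. Over all 17594 genes, 1.35% (237 genes) were lower by over 1 in all 4 treated libraries. The other 5 members were not among them. Without BLA-A, 1.49% of genes were lower in the other 3 libraries. Shc2 was singled out after its values were seen.

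**Figure D2:**
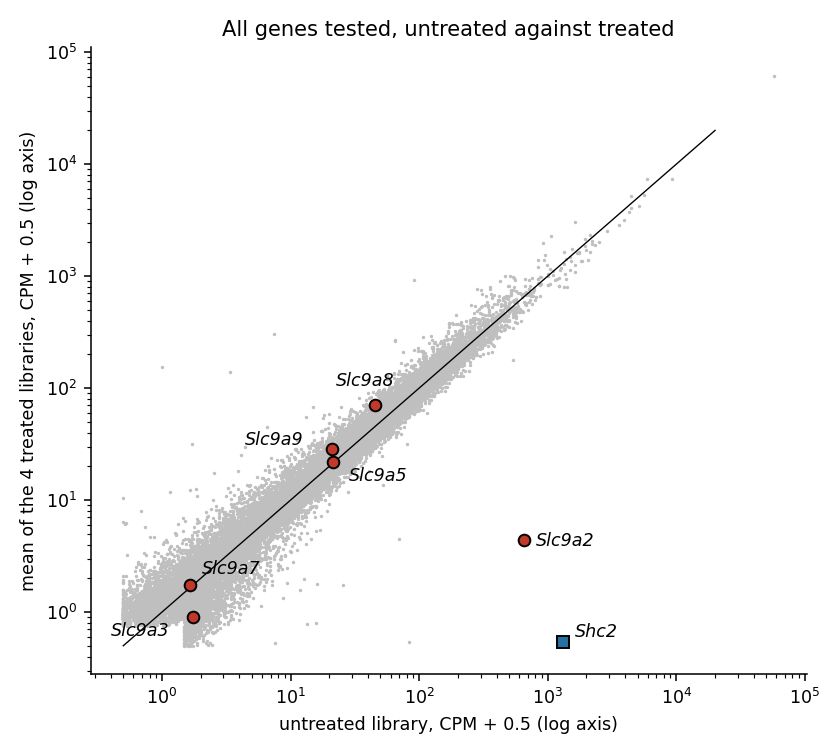
Level of each of 17594 genes in the untreated library (x axis) and its mean over the 4 treated libraries (y axis), both as CPM plus 0.5 on log axes. The line marks equal levels, red circles are the 6 exchangers and the blue square is Shc2. Slc9a2 and Shc2 lie far below the line, and Slc9a5, Slc9a7, Slc9a8 and Slc9a9 lie near it.

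Slc9a3, the other gene of an apical exchanger, was scarce throughout. Its columns held 37, 31 and 31 counts in untreated cells and 28, 29 and 29 with BLU-A. They held 9, 8 and 6 counts with BLA-A, 5, 5 and 4 with BLU, and 1, 1 and 1 with BLA. The untreated and BLU-A libraries were thus the highest.

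Its level was 1.24 CPM in untreated cells (0.852 to 1.74) and 1.08 CPM with BLU-A (0.733 to 1.57), a difference within counting error. It was 0.331 CPM with BLA-A, 0.169 CPM with BLU and 0.0367 CPM with BLA. On CPM plus 0.5 the log2 fold changes were -1.70 with BLA, -1.38 with BLU, -1.06 with BLA-A and -0.14 with BLU-A. Without the pseudocount the log2 ratio of BLA to untreated was -5.08 with an interval of -10.4 to -2.50, which shows how little a library with 1 count can fix. With a pseudocount of 2 CPM none of these 3 lower values passed 1 in size. Exoc3, the exocyst subunit gene on the opposite strand, was at 20.5 to 30.9 CPM in all 5 libraries.

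Slc9a5 varied little over the 5 conditions. Its columns held 544 to 581 counts in untreated cells, 628 to 649 with BLA, 536 to 549 with BLU, 451 to 484 with BLA-A and 555 to 601 with BLU-A. The levels were 21.0 CPM in untreated cells, 23.5 CPM with BLA, 19.8 CPM with BLU, 20.3 CPM with BLA-A and 22.0 CPM with BLU-A. With TMM scaling no treated library differed from the untreated one beyond counting error, and no neighbours in the order of the 5 levels did so either. Between treated libraries, BLA lay above BLU (log2 ratio 0.25, interval 0.08 to 0.42) and above BLA-A (log2 ratio of BLA-A to BLA -0.21, interval -0.39 to -0.04). The log2 fold changes lay between -0.08 and 0.16. Scaling by total counts alone moved that of BLA-A from -0.05 to -0.24.

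Slc9a7, the exchanger gene of the trans-Golgi network, was near 1 CPM. Its columns held 28, 31 and 33 counts in untreated cells, 32, 30 and 29 with BLA, 60, 59 and 61 with BLU, 8, 6 and 6 with BLA-A, and 37, 39 and 33 with BLU-A. BLU was the highest library and BLA-A the lowest.

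Its levels were 1.15 CPM in untreated cells, 1.11 CPM with BLA, 2.18 CPM with BLU, 0.288 CPM with BLA-A and 1.37 CPM with BLU-A. The log2 ratio to untreated was 0.92 with BLU (interval 0.26 to 1.58) and -2.0 with BLA-A (-3.37 to -0.73). On CPM plus 0.5 these became 0.70 and -1.07, and BLA-A was the single treatment where Slc9a7 passed 1 in size. Chst7, a sulfotransferase gene on the opposite strand, reached 0.665 CPM at most.

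Slc9a8, the exchanger gene of Golgi and endosomes, was the most abundant member per coding length in the treated libraries and was higher in all 4 of them than in untreated cells. Its columns held 1196, 1198 and 1183 counts in untreated cells, 2057, 2042 and 2057 with BLA, and 1848, 1837 and 1825 with BLU. They held 1443, 1435 and 1482 counts with BLA-A and 1932, 1976 and 1902 with BLU-A. Every treated library was thus above the untreated one.

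The levels were 44.7 CPM in untreated cells (42.2 to 47.3), 75.3 CPM with BLA (72.1 to 78.7), 66.7 CPM with BLU (63.7 to 69.8), 62.7 CPM with BLA-A (59.5 to 66.0) and 73.1 CPM with BLU-A (69.8 to 76.4). Slc9a8 was 1.68-fold higher with BLA, 1.49-fold with BLU, 1.4-fold with BLA-A and 1.63-fold with BLU-A, beyond counting error in each and short of a log2 fold change of 1. In the order of the levels, BLA did not differ from BLU-A beyond counting error, nor BLU from BLA-A, whereas BLU-A lay above BLU (log2 ratio 0.13, interval 0.04 to 0.23).

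Slc9a9, the endosomal member, was also higher in every treated library than in untreated cells. The difference was smaller than that of Slc9a8 in BLA, BLU and BLU-A and larger in BLA-A. The Slc9a9 columns held 546 to 558 counts in untreated cells, 646 to 661 with BLA, 808 to 833 with BLU, 717 to 743 with BLA-A and 717 to 745 with BLU-A. The levels were 20.6 CPM in untreated cells, 24.0 CPM with BLA, 29.8 CPM with BLU, 31.6 CPM with BLA-A and 27.6 CPM with BLU-A. Its log2 ratio to untreated cells ran from 0.22 with BLA (interval 0.06 to 0.39) to 0.61 with BLA-A (0.45 to 0.78). BLA-A, BLU and BLU-A, taken as neighbours in that order, did not differ beyond counting error, although BLA-A lay above BLU-A (log2 ratio 0.20, interval 0.05 to 0.35).

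Counted together, 2 of the 6 members were lower than untreated by a log2 fold change over 1 with BLA, 2 with BLU, 3 with BLA-A and 1 with BLU-A, and 0 were higher in any. Over all 17594 genes, 8.5% were lower with BLA, 4.61% with BLU, 12.3% with BLA-A and 4.48% with BLU-A. The shares that were higher were 7.91%, 5.64%, 8.55% and 3.39%. Slc9a2 was chosen for its fall, so nothing is read from these counts. The median log2 fold change over all genes lay between -0.01 and 0.00 in each treatment.

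**Figure D3:**
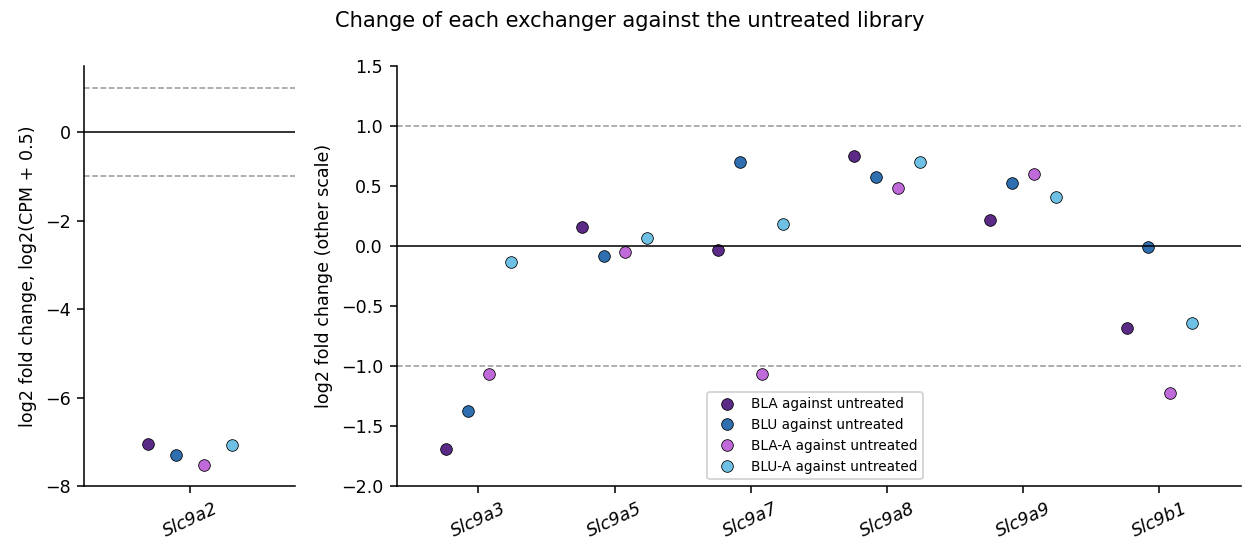
Log2 fold change of each exchanger against the untreated library on CPM plus 0.5, one point per treatment, with dashed lines at a log2 fold change of 1 in either direction. The left panel holds Slc9a2 on a scale of its own. Slc9a2 lies at -7.06 to -7.53, Slc9a8 and Slc9a9 lie above 0 in all 4 treatments and below 1, and Slc9a5 lies near 0.

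Between genes, levels were compared per length. Per kb of gene span, Slc9a2 came first in untreated cells at 7.41 CPM per kb, followed by Slc9a5 at 0.915 and Slc9a8 at 0.807 CPM per kb. In the treated libraries Slc9a8 came first at 1.13 to 1.36 CPM per kb and Slc9a5 second at 0.862 to 1.03, while Slc9a2 was at 0.0345 to 0.0499 CPM per kb. Per kb of coding sequence, Slc9a2 led again in untreated cells with 253 CPM per kb, and Slc9a8 followed with 24.7 CPM per kb. In the treated libraries Slc9a8 led by this scale too, at 34.6 to 41.6 CPM per kb, and Slc9a2 followed Slc9a9 and Slc9a5 at 1.18 to 1.71 CPM per kb. The place of Slc9a9 depended on the scale, since it came below Slc9a5 in all 5 libraries per gene span and above it in all 5 per coding length.

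The 4 treated libraries allowed comparisons that the choice of members did not use, with 2 libraries on each side. Nanoparticles (BLA-A and BLU-A) were set against extracts (BLA and BLU), and blackberry (BLA and BLA-A) against blueberry (BLU and BLU-A). The spread within a side is that between the berries in the first and between extract and nanoparticles in the second. The SEs and p-values therefore do not measure the spread between repeats of a treatment. The quasi-likelihood test of edgeR, adjusted by Benjamini-Hochberg, called 0 of 17594 genes in either, 0% of those tested. At an unadjusted p under 0.05 there were 1111 and 631 genes, and DESeq2 called 34 and 13. None of the 6 members was called by either tool.

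For nanoparticles against extracts, Slc9a3 had the largest difference of the members, a log2 fold change of 2.76 (SE 1.65, adjusted p = 0.684), with means of 0.706 and 0.103 CPM. Slc9a7 was at -0.94 (SE 1.02, adjusted p = 0.796). Slc9a2 was at -0.06 (SE 0.49, adjusted p = 0.976), with means of 3.73 and 4.04 CPM. The log2 fold changes of Slc9a5, Slc9a8 and Slc9a9 were 0.02 (SE 0.28), -0.01 (SE 0.23) and 0.20 (SE 0.28).

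For blackberry against blueberry, Slc9a3 was at -1.69 (SE 1.66, adjusted p = 0.917) and Slc9a7 at -1.30 (SE 0.94, adjusted p = 0.913). Slc9a7 had means of 0.701 and 1.77 CPM. The intervals of BLU-A (0.951 to 1.88 CPM) and BLA (0.743 to 1.57 CPM) overlapped. The log2 fold changes of Slc9a2, Slc9a5, Slc9a8 and Slc9a9 were -0.06 (SE 0.49), 0.12 (SE 0.29), 0.03 (SE 0.24) and 0.01 (SE 0.30). With 2 libraries a side, a p over the threshold does not show that levels were alike.

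Of the wider Slc9 family, 4 other exchanger genes are described here, all scarce. Slc9b1 was at 2.05 CPM in untreated cells and 0.590 CPM with BLA-A, a log2 fold change of -1.23, and at 1.09 to 2.03 CPM elsewhere. Slc9a4, the family member that starts 101 kb before Slc9a2, had 0 counts in untreated cells and 2 to 5 in the treated libraries. Slc9c1 had 20 counts in untreated cells, 4 with BLU-A and 0 in the other 3, and Slc9b2 had at most 3.

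The genes around Slc9a2 are given as a description. Within 500 kb of the gene the table listed 12 other genes, of which 6 passed 1 CPM in a library and 0 were lower by a log2 fold change over 1 in each of the 4 treated libraries. Over all 17594 genes that share was 1.35%, so 0 of 6 is near the background. Il1r1, the interleukin-1 receptor gene that starts 456 kb before Slc9a2, was at 68.3 CPM in untreated cells and 50.3 to 65.3 CPM in the treated libraries. Il18rap, which encodes a subunit of the interleukin-18 receptor, was at 23.1 CPM in untreated cells and 28.0 to 39.2 CPM in the treated ones. Mfsd9, an orphan transporter gene that starts 110 kb after the start of Slc9a2, was at 3.06 CPM in untreated cells, 1.55 with BLA and 7.97 with BLA-A. Gm37915, a non-coding gene within Mfsd9 on the opposite strand, moved with it, at 2.66 CPM in untreated cells and 7.26 CPM with BLA-A. Whether some of its counts were reads of Mfsd9 was not tested. Il1rl1, the interleukin-33 receptor gene, had 50 counts in untreated cells and 0 to 17 in the treated libraries. Its log2 fold changes were -2.24, -1.67, -0.955 and -1.33 with BLA, BLU, BLA-A and BLU-A. Tmem182 had 35 counts in untreated cells and 0 to 18 in the treated ones, with log2 fold changes of -0.63, -1.86, -1.37 and -1.32 in that order. Il1rl1 and Tmem182, both scarce, were thus highest in untreated cells as well.

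**Figure D4:**
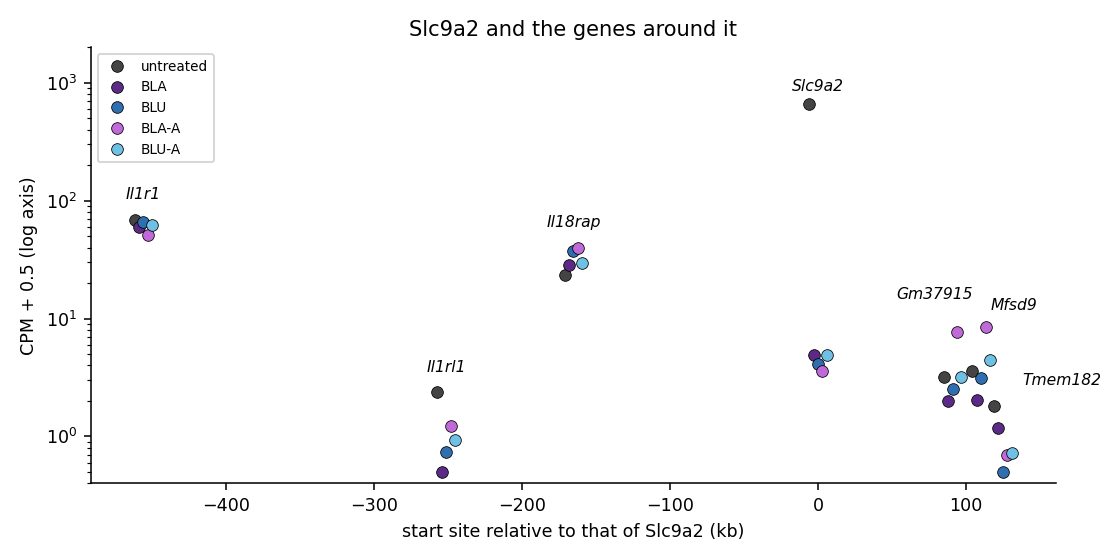
Level of Slc9a2 and of the 6 genes within 500 kb of it that reached 1 CPM in a library, as CPM plus 0.5 on a log axis, against the distance of each start site from that of Slc9a2 in kb. Points of the 5 libraries are set slightly apart so that they can be seen. Slc9a2 has 1 point far above the rest, the untreated library at 657 CPM, while Il1r1 and Il18rap keep their 5 points close together.

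The genes whose pattern over the 5 libraries was nearest to that of Slc9a2 were sought among 10744 genes with at least 10 CPM in a library, by the Euclidean distance between centred log2 profiles of CPM plus 0.5. The nearest was Gm36303, a predicted gene on chromosome 5, at a distance of 0.52, with 2201 counts in untreated cells and 0 to 2 in the treated libraries. Pik3cg, which encodes a phosphoinositide 3-kinase of leukocytes, followed at 2.83, with 15.1 CPM in untreated cells and at most 0.992 CPM elsewhere. Ptprz1, a receptor tyrosine phosphatase gene, came next at 3.00, with 68.7 CPM in untreated cells and 2.94 to 4.76 CPM in the treated libraries. Gm46392 and Fam20a, a gene of a pseudokinase of enamel formation, were at 3.03 and 3.07. All 5 lie on chromosomes other than that of Slc9a2. By Pearson's correlation over the 5 libraries 2 of these 5 genes remained, Gm36303 and Ptprz1, since a correlation does not weigh the size of a change. Shc2 then came first (r = 0.998), at a distance of 3.64. The likeness rests on 5 points, 1 of which is high.

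**Figure D5:**
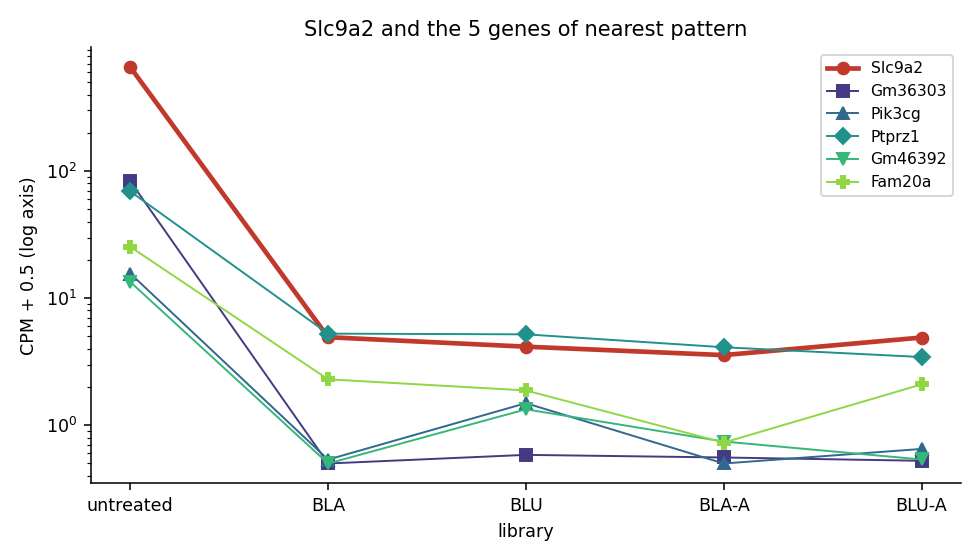
Levels of Slc9a2 and the 5 genes of nearest pattern in the 5 libraries, as CPM plus 0.5 on a log axis. Each line joins the values of 1 gene, in the order untreated, BLA, BLU, BLA-A and BLU-A. All 6 genes are highest in the untreated library. Gm36303 runs most nearly parallel to Slc9a2 on this scale, where the added 0.5 sets its height in the treated libraries.

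Of 10 listed proteins that bind or control the exchangers, 9 were in the table and 8 passed 1 CPM. In BLA, BLU and BLU-A no gene of the 8 differed by over 1 (log2). Over all genes 7.91%, 5.64% and 3.39% were higher and 8.5%, 4.61% and 4.48% lower there, so 0 of 8 is near the background. In BLA-A 3 were higher and 1 was lower, and the median log2 fold change was 0.87. That library had the most genes past the threshold, 8.55% higher and 12.3% lower over all genes. Nherf1, the scaffold that anchors NHE3 at the apical membrane, was at 26.4 CPM in untreated cells and 64.1 CPM with BLA-A, a log2 fold change of 1.26. Sgk1, a kinase that stimulates NHE3, was at 53.3 and 121 CPM, a log2 fold change of 1.18. Chp1, a calcium-binding cofactor of the exchangers, was at 33.3 and 67.5 CPM. Tesc, another such cofactor, was at 3.64 and 1.54 CPM. BLA-A was also the library in which scaling by total counts alone moved the median of all genes, by -0.17, against -0.03 at the most in the other 3.

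Bicarbonate transporters of the Slc4 family, which carry base across the same membranes, gave 9 genes above 1 CPM among 10 listed, with medians of 0.25, 0.11, 0.37 and 0.13 (log2) for BLA, BLU, BLA-A and BLU-A. In each of BLU and BLU-A 1 was higher, with BLA-A 1 was higher and 1 lower, and with BLA 0 passed a log2 fold change of 1. The shares over all genes were 5.64% higher for BLU, 3.39% higher for BLU-A, and 8.55% higher and 12.3% lower for BLA-A, so that 1 of 9 is near the background. Slc4a8, a sodium-driven chloride bicarbonate exchanger gene, was at 12.4 CPM in untreated cells and 16.1 to 34.1 CPM in the treated libraries, highest with BLA-A. Slc4a3, an anion exchanger gene, was at 1.03 CPM in untreated cells and 3.60 CPM with BLU.

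All 6 genes of lactate and proton cotransport passed 1 CPM in a library. In BLU-treated cells 1 was higher and 1 lower by over 1 (log2), and 1 was higher in each nanoparticle library. Among all genes 5.64% were higher and 4.61% lower for BLU, 8.55% higher for BLA-A and 3.39% higher for BLU-A, and 1 gene of 6 cannot be set apart from these shares. The medians were -0.13 with BLA, -0.34 with BLU, -0.34 with BLA-A and 0.17 with BLU-A. Bsg, the chaperone that brings lactate carriers to the membrane, was at 74.1 CPM in untreated cells, 233 CPM with BLA-A and 55.1 to 68.0 CPM in the other treated libraries. Slc16a7, a lactate carrier gene, had 60 counts with BLU-A and 2 to 13 elsewhere. Of the carbonic anhydrases, which interconvert carbon dioxide and bicarbonate, 9 of 13 passed 1 CPM. In BLA-A-treated cells 3 were higher and 1 lower, 1 was higher with BLA and 1 lower with BLU, and the medians lay between -0.15 and 0.38. Over all genes 8.55% were higher and 12.3% lower with BLA-A, 7.91% higher with BLA and 4.61% lower with BLU, so counts of 1 among 9 are near the background. Car9, the hypoxia-induced form at the cell surface, was at 3.24 CPM in untreated cells, 10.4 CPM with BLA and 14.3 CPM with BLA-A, and at 4.37 and 3.41 CPM with BLU and BLU-A. Car12, also at the surface, was at 27.6 CPM in untreated cells and 57.2 CPM with BLA-A, and between 13.9 and 19.2 CPM in the other 3.

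The V-ATPase, the proton pump against which the organelle exchangers work, gave 21 of 25 subunit genes above 1 CPM. In BLA-A 4 were higher and 1 was lower by over 1, beside 8.55% and 12.3% of all genes, with a median log2 fold change of 0.60. In BLA, BLU and BLU-A 0 were higher and 1, 1 and 2 were lower, with medians of -0.02, -0.05 and -0.16. Over all genes 7.91%, 5.64% and 3.39% were higher and 8.5%, 4.61% and 4.48% lower in these 3 treatments. Such small counts among 21 genes cannot be set apart from these shares. Atp6v0e2, a minor isoform of a membrane subunit, was lower by over 1 in all 4 treatments, from 1.98 CPM in untreated cells to 0.135 to 0.705 CPM. Atp6ap1, an accessory subunit gene, was at 43.0 CPM in untreated cells, 161 CPM with BLA-A and 33.6 to 35.3 CPM in the other treated libraries. Of the sodium and proton pumps, 4 of 8 passed 1 CPM. Atp1b1, which encodes the beta subunit of the sodium pump, was at 38.4 CPM in untreated cells and 67.3 CPM with BLA-A. None of the genes in these lists was called in either comparison among the treated libraries.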

How the data were processed

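Bulk RNA-seq of 4T1 cells was examined from processed files. The authors deposited raw counts per gene without normalization, in 15 columns. They depleted ribosomal RNA, aligned merged mates to GRCm39 with STAR and counted by strand on whole genes in OmicsBox. The submitters' processing notes name DESeq and DESeq2 1.36.0. Deposited tables of the authors' own comparisons and enrichment (log2 fold changes, p-values, scores) were not used.

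The 3 columns of each condition were averaged into 1 library. Genes with at least 1 CPM in 1 library were kept, scaled by TMM (edgeR 4.0.16, R 4.3.3), and CPM plus 0.5 gave the log2 fold changes. Intervals of levels are exact Poisson intervals, and those of ratios are exact conditional binomial intervals, at 95%. Treated libraries were compared 2 against 2 by the edgeR quasi-likelihood test, and SEs were taken from its statistic. DESeq2 1.42.0 was an alternative. Others were the scaling, filter, pseudocount, an additive model, left-out libraries or columns, and columns as separate samples. The test was checked on simulated data, but its recovery of true changes at the spread of these libraries is not reported here. Positions came from GENCODE release M39. Python 3.11.15 was used with scipy 1.17.1.

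The members and gene lists were chosen with earlier results of these data known. Named were the 6 members, list genes called in a test or with a change of over 1 (log2) in every treatment, the 2 genes of widest range per list, genes within 500 kb of Slc9a2 or overlapping a member, and the 5 nearest to Slc9a2 in pattern. Shc2, Chp1, Tesc, Slc9a4, Slc9b2, Slc9c1 and the markers Epcam, Krt14 and Lum were chosen after their values were seen. Some genes that this rule names are not reported here.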

Additional observations from a re-analysis of the deposited data

Results flagged for a closer look

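Slc9a8 changed in opposite directions between nanoparticles and their extract in the 2 berries. Its log2 fold change was -0.26 for BLA-A against BLA, from 75.3 to 62.7 CPM, and 0.13 for BLU-A against BLU, from 66.7 to 73.1 CPM. Both changes exceeded counting error, with intervals of the log2 ratio of -0.36 to -0.17 and of 0.04 to 0.23. The difference between the berries was not tested, since each condition has 1 library.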

How the results depend on the processing

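The 24 log2 fold changes of the members against untreated cells kept their side of the threshold under 9 alternatives, except 4 under a pseudocount of 2 CPM. These were Slc9a3 in BLA (-0.67), BLU (-0.58) and BLA-A (-0.47) and Slc9a7 in BLA-A (-0.46), all near 1 CPM or below. The number of members past the threshold then became 1 in BLA, 1 in BLU and 1 in BLA-A. A filter of 10 counts in every library, which leaves out Slc9a3 and Slc9a7, gave 1 in each of these as well. Scaling by total counts alone lowered the BLA-A values of Slc9a5 to -0.24, Slc9a8 to 0.29 and Slc9a9 to 0.41. The sign changed 4 times over the alternatives, in Slc9a5 with BLA-A and Slc9a7 with BLA, whose main values were -0.05 and -0.03. Without BLA-A, an alternative added after seeing the data, the count of members lower in all treated libraries was 1 as before, which the choice of Slc9a2 fixes.

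The number of genes called among the treated libraries depended on the method. For nanoparticles against extracts it was 0, and 34 by DESeq2, 697 without a filter and 2 with berry in the model. For blackberry against blueberry it was 0, and 13 by DESeq2, 348 without a filter and 7 with the preparation in the model. Leaving out 1 treated library gave from 1 gene (without BLU) to 4115 genes (without BLU-A) in the first and from 9 (without BLU-A) to 4880 (without BLA) in the second. Without BLA and without BLA-A the first gave 4 and 59 genes, and without BLU and without BLA-A the second gave 24 and 307. The lone library is then assumed to vary like the other group, and the cause was not tested. In these fits on libraries the smallest adjusted p of a member was 0.0879 (Slc9a7, blackberry against blueberry without BLA, edgeR). Taking the 12 columns as separate samples gave 7789 and 5828 genes without a replicate block and 6078 and 3974 with a replicate block by column number. Slc9a3 (log2 fold change 2.76) then passed in the first comparison, with and without the block, and Slc9a7 (-1.29) in the second without it. The columns are subsets of 1 library each, so these counts do not measure replicate error, and their numbers pair nothing. Other scalings and leaving out 1 column of each condition gave 0 genes in both comparisons. At 1 count Slc9a3 in BLA is below the floor of 3 counts.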
